A study of Mus musculus with 8 samples.

Results

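The genes described here write, copy and remove methylation at cytosine in DNA. They were taken by symbol from a named list of 9 genes, namely Dnmt1, Uhrf1, Dnmt3a, Dnmt3b, Dnmt3l, Tet1, Tet2, Tet3 and Tdg, out of 24421 genes in the count tables. All 9 were in the tables and 8 had at least 1 read, while Tdg had none in any library. RNA of R1 mouse embryonic stem cells, an established pluripotent line, was sequenced as long nanopore reads in an undifferentiated state (Undiff) and after 4 days with retinoic acid (Day4). Each state was sequenced with 2 kits of Oxford Nanopore Technologies (ONT), one reading native RNA strands (ONT Direct RNA, 500 ng of poly(A) RNA) and one reading PCR-amplified cDNA (ONT cDNA, 50 ng), with 2 replicates per state and kit, or 8 libraries in all.

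The labels name no genotype or strain beyond the R1 line for any group. The study's methods describe Undiff cells as kept with leukaemia inhibitory factor, which holds stem cells undifferentiated, whereas the sample labels give embryoid bodies as the tissue of every library. Day4 cells were embryoid bodies, floating aggregates of differentiating cells, kept for 4 days without that factor and then for 4 days with retinoic acid, so the withdrawal of the factor, the aggregation, the time and retinoic acid cannot be told apart. The dose is 2 µM in the series text and in the methods and 2 mM in the sample text. According to the methods, replicates were grown and treated separately. The study describes its RNA as used with both kits, so the 2 platforms are repeat readings of the same 2 replicates per state and not independent cultures, and a result on both platforms is no independent biological replication. In such bulk RNA, fewer cells of a type and less RNA per cell cannot be told apart.

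DNA methylation in mammals is placed mainly on cytosines followed by guanine (CpG). Dnmt3a and Dnmt3b methylate unmodified DNA, Dnmt3l is their inactive cofactor, and Dnmt1, brought to replicated DNA by Uhrf1, copies the pattern to the daughter strand. The Tet enzymes oxidize 5-methylcytosine, and the glycosylase Tdg cuts out the most oxidized forms so that base excision repair can restore cytosine. Mouse embryonic stem cells are known for high levels of Dnmt3b, Dnmt3l and Tet1.

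The promoter sequences below belong to the 4 genes that were lower at Day4 on both platforms and to Dnmt3a, which was not, and they are shown to compare their CpG density, since methylation of CpG is what these enzymes act on. Each runs from 250 bases before to 50 bases after a RefSeq transcription start on GRCm38.p6 and is written 5′ to 3′ on the strand of the gene. Capitals mark the GC box, GGGCGG on either strand, which 35.7% of 32851 RefSeq promoters of this length held. They are, for Dnmt3b, chr2:153649199-153649498 (plus strand), for the first of 3 Dnmt3l starts, chr10:78042037-78042336 (plus), for the second of 2 Uhrf1 starts, chr17:56304063-56304362 (plus), for Tet1, chr10:62887275-62887574 (minus), and for the first of 3 Dnmt3a starts, chr12:3806730-3807029 (plus).
Dnmt3b: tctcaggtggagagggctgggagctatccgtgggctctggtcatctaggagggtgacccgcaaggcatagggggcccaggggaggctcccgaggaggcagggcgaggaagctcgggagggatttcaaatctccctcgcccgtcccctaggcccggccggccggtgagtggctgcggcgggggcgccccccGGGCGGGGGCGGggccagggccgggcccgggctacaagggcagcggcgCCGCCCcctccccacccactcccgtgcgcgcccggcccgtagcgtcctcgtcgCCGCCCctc
Dnmt3l: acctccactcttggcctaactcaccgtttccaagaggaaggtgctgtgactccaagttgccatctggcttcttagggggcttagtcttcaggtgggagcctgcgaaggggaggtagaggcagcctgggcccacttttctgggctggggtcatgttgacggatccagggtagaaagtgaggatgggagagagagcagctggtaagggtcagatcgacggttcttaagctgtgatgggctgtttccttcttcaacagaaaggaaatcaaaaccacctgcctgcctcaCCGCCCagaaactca
Uhrf1: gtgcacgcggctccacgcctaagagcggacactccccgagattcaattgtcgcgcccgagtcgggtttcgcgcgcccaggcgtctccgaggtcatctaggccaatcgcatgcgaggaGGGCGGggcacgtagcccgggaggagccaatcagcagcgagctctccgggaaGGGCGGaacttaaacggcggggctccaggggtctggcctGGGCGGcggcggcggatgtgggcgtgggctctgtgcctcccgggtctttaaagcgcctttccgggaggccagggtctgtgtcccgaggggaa
Tet1: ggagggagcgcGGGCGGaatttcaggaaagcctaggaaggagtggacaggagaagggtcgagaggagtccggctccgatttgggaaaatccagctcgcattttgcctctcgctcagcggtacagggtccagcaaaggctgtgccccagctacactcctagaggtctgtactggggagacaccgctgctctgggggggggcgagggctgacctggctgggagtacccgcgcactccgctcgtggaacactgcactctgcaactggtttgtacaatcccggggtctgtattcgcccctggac
Dnmt3a: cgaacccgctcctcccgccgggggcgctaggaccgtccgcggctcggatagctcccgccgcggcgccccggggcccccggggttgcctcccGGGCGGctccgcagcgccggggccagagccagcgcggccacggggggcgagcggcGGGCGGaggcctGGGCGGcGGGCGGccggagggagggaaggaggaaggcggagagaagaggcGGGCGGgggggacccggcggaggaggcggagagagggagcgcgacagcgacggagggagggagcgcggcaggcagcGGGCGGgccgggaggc

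These 5 windows held 30 CpG for Dnmt3b, 6 for Dnmt3l, 33 for Uhrf1, 17 for Tet1 and 46 for Dnmt3a, where the median of all promoters was 7. The Dnmt3l window was thus near the middle of all promoters, with 43.6% of them holding fewer CpG, whereas 98.4% held fewer than the Dnmt3a window. The windows were chosen 1 per gene for display, and the other starts held 4 and 3 CpG for Dnmt3l, 12 for Uhrf1 and 47 and 18 for Dnmt3a. The Tet1 window lies inside the annotated gene, downstream of its annotated 5′ end at position 62908996. The GC box occurred 4 times in the window of Dnmt3b, 6 times in that of Dnmt3a, 3 times in that of Uhrf1 and once in those of Dnmt3l and Tet1. The retinoic acid receptor motif AGGTCA, searched on either strand, was in the windows of Tet1 and Uhrf1 and in that of the third Dnmt3a start, and 16.3% of all promoters held it. An E2F site, written here as TTTGGCGC or TTTCGCGC on either strand, was in 0.813% of all promoters, among them the second Uhrf1 start and the third of 3 Dnmt1 starts. These matches describe letters in a window and not binding.

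Reads on genes ranged from 283461 to 907489 per ONT Direct RNA library and from 948657 to 2088592 per ONT cDNA library. Levels are given as reads scaled to 1000000 gene-assigned reads (CPM), and 3 reads correspond to between 1.44 CPM in the deepest library and 10.6 CPM in the shallowest. The state labels were checked on marker genes. The 6 pluripotency markers summed to 5599 and 5749 CPM in the ONT Direct RNA Undiff libraries and to 49.4 and 146 CPM at Day4, and to 2675 and 3307 CPM against 7.59 and 91.5 CPM in ONT cDNA. The 6 retinoic acid response genes summed to at most 4.79 CPM in any Undiff library and to at least 359.6 CPM in any Day4 library. Markers of other cell types moved with the state as well. The summed level of the 6 fibroblast or mesenchyme markers was 4.31 to 14.3 CPM in the Undiff libraries and 220.0 to 2840 CPM in the Day4 libraries, carried by the collagens Col1a1, Col1a2 and Col3a1, while Dcn and Lum were at most at 7.06 CPM and Thy1 was at 3.83 to 8.61 CPM in Undiff and 0 to 4.07 CPM at Day4. The summed level of the 6 primitive and visceral endoderm markers was 1.05 to 11.0 CPM in Undiff and 204 to 1037 CPM at Day4. The 4 blood and macrophage markers summed to 23.1 to 47.4 CPM in Undiff and 407 to 2474 CPM at Day4, where the embryonic globins Hbb-y and Hba-x, at 0 in Undiff, made up the higher level. Cd68, a macrophage marker, was at 23.1 to 47.4 CPM in Undiff and 3.53 to 4.55 CPM at Day4, and Ptprc was at 0 in all libraries. The 5 neural markers summed to 73.8 to 178 CPM in Undiff and 41.4 to 82.7 CPM at Day4, with Tubb3 lower (69.6 to 164 CPM against 10.6 to 28.8 CPM) and Nes higher on each platform (1.05 to 12.1 CPM against 11.4 to 54.2 CPM over both). The sums were, for the 5 germ cell markers, 28.5 to 121 CPM in Undiff and 7.06 to 25.8 CPM at Day4, and for the 4 trophoblast markers, 3.35 to 11.0 CPM and 0 to 17.6 CPM. The part of this change of cell types in the values below was not tested.

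Of the 9 genes, 4 were differentially expressed genes (DEGs) between states in ONT Direct RNA and 5 in ONT cDNA, and each was lower at Day4. Dnmt3b, Dnmt3l, Uhrf1 and Tet1 were DEGs on both platforms and Tet2 in ONT cDNA. DESeq2 defined a DEG by a Benjamini-Hochberg adjusted p up to 0.05, a log2 fold change beyond -1 or 1 and a mean normalised count that reached 5. By the same rule, 7.67% of genes with that mean were lower at Day4 in ONT Direct RNA and 9.24% in ONT cDNA, so the count among these genes was above the background in both. DESeq2 called 0 of the genes higher at Day4, while 9.54% of genes were higher in ONT Direct RNA and 8.69% in ONT cDNA. At an unadjusted p under 0.05, 0 were higher in ONT Direct RNA and 2 in ONT cDNA, and edgeR called the same numbers, the 2 being Dnmt3a and Tet3.

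**Figure D1:**
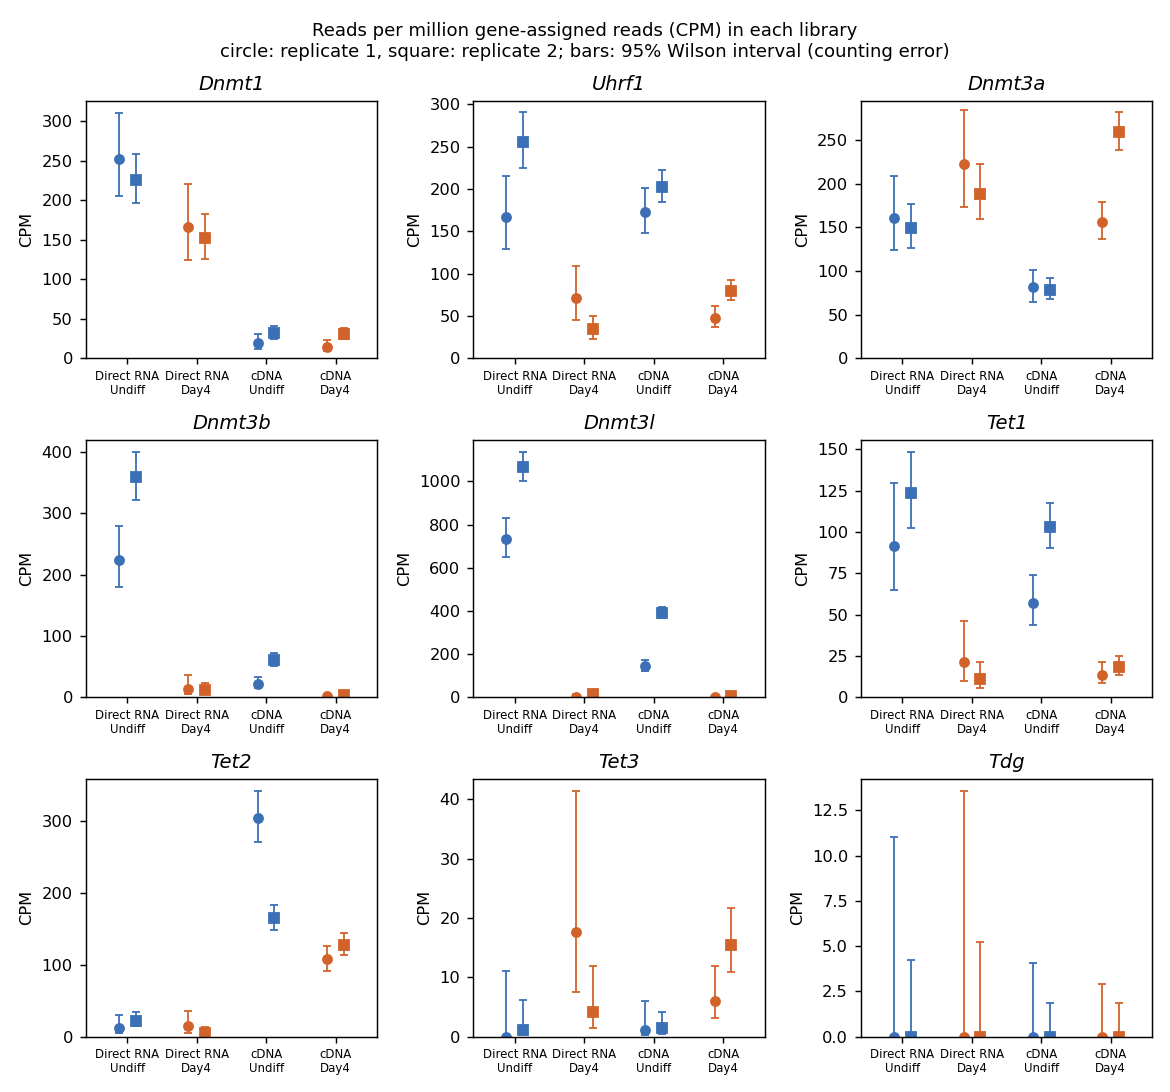
CPM of the 9 genes in each of the 8 libraries, by platform and state, with circles for replicate 1, squares for replicate 2 and bars for the 95% Wilson interval, which covers counting error only. Dnmt3b, Dnmt3l, Uhrf1 and Tet1 were lower in all Day4 libraries than in the Undiff libraries of the same platform, Dnmt1 and Tet2 had the largest fold differences between platforms, and Tdg was at 0 throughout.

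**Figure D2:**
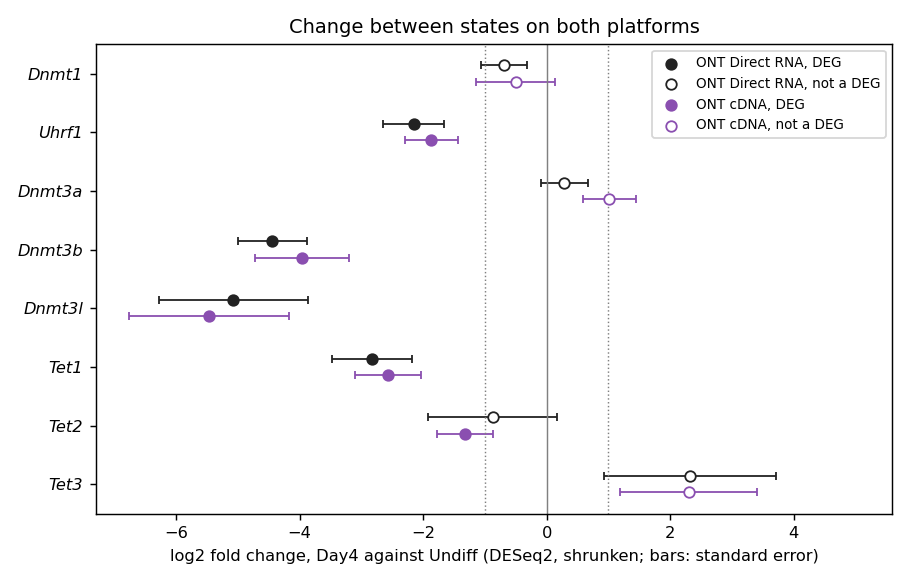
Shrunken log2 fold change of Day4 against Undiff by DESeq2 for the 8 genes with reads, with standard errors as bars, dotted lines at the fold threshold, and filled symbols for DEGs. Dnmt3b and Dnmt3l lay farthest below 0 on both platforms, and Dnmt3a and Tet3 lay above 0 with open symbols.

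Maintenance of methylation was represented by Dnmt1 and Uhrf1, and of these Uhrf1 was lower at Day4. Dnmt1 (chr9:20907209-20959888, GRCm38, minus strand) copies methylation after replication. Its ONT Direct RNA levels were 253 and 226 CPM in the Undiff replicates and 166 and 152 CPM at Day4. The Day4 libraries were thus both below the Undiff libraries on that platform. In ONT cDNA, Dnmt1 stood at 19.0 and 31.6 CPM in Undiff and at 14.4 and 30.3 CPM at Day4, where the states overlapped. Neither platform called it a DEG, with log2 fold changes of -0.68 ± 0.37 (SE, adjusted p = 0.287) in ONT Direct RNA and -0.50 ± 0.64 (adjusted p = 0.833) in ONT cDNA.

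Uhrf1 (chr17:56303321-56323486, plus strand) binds hemimethylated DNA and recruits Dnmt1. It was at 166 and 256 CPM in the ONT Direct RNA Undiff libraries and at 70.6 and 33.9 CPM at Day4. In ONT cDNA, the levels of Uhrf1 were 173 and 203 CPM in Undiff and 47.8 and 79.4 CPM at Day4. States did not overlap on either platform. The log2 fold change of Uhrf1 was -2.15 ± 0.49 (adjusted p = 0.000333) in ONT Direct RNA and -1.86 ± 0.43 (adjusted p = 0.000329) in ONT cDNA, that is, 4.45-fold and 3.64-fold lower. With 1 library left out, Uhrf1 stayed negative but was no DEG without replicate 2 of Direct RNA Undiff (-1.69, adjusted p = 0.44) or of Direct RNA Day4 (-1.64, adjusted p = 0.152), nor without replicate 2 of cDNA Undiff (-1.81, adjusted p = 0.0523) or replicate 1 of cDNA Day4 (-1.54, adjusted p = 0.0986). Thinning each library at random to the reads of the smallest also ended its ONT cDNA call (-1.77, adjusted p = 0.0741). Over 11 alternative settings its adjusted p ranged from 8.78e-08 to 0.44 in ONT Direct RNA and from 9.68e-05 to 0.0986 in ONT cDNA.

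Uhrf1 and Dnmt1 can also be set against each other within a library, where depth cancels. In ONT Direct RNA there were 0.659 and 1.13 Uhrf1 reads per Dnmt1 read in the Undiff replicates and 0.426 and 0.223 at Day4. In ONT cDNA the same ratio was 9.11 and 6.41 in Undiff and 3.32 and 2.62 at Day4. The ratio was lower in every Day4 library than in the Undiff libraries of its platform, and it was several-fold higher in ONT cDNA throughout. With 2 libraries against 2, an exact permutation test cannot reach 0.05, so ratios are given without a test.

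The de novo enzymes did not move alike, as Dnmt3b and Dnmt3l were lower at Day4 and Dnmt3a was not. Dnmt3b (chr2:153649450-153687730, plus strand) is the de novo methyltransferase of the early embryo. Its ONT Direct RNA levels were 224 and 358 CPM in Undiff, from 78 and 325 reads, and 14.1 and 12.2 CPM at Day4, from 4 and 9 reads. In ONT cDNA, Dnmt3b was at 22.1 and 61.3 CPM in Undiff and at 1.52 and 3.85 CPM at Day4, the latter from 2 and 8 reads. Every Day4 library lay far below every Undiff library of its platform. The log2 fold change was -4.44 ± 0.56 (adjusted p = 3.6e-13) in ONT Direct RNA, or 21.7-fold lower, and -3.96 ± 0.77 (adjusted p = 1.09e-05) in ONT cDNA, or 15.5-fold lower. Among all left-out libraries, that of replicate 2 of cDNA Undiff removed the call of Dnmt3b in ONT cDNA (-2.96, adjusted p = 0.138), and thinning did the same (-3.14, adjusted p = 0.201), while it was a DEG in ONT Direct RNA under each of 10 alternatives, with adjusted p from 9.17e-22 to 0.000605.

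Dnmt3l (chr10:78041947-78063622, plus strand) has no catalytic activity and stimulates Dnmt3a and Dnmt3b. Its fold decrease was the largest of the 9 genes with all libraries in the fit, but smaller than that of Dnmt3b without either Undiff library of the platform. In ONT Direct RNA, 256 and 967 reads in Undiff, or 735 and 1066 CPM, compared with 0 and 13 reads at Day4, or 0 and 17.6 CPM. In ONT cDNA, 139 and 817 Undiff reads, or 147 and 391 CPM, compared with 0 and 9 reads at Day4, or 0 and 4.33 CPM. Replicate 1 of Day4 therefore held no Dnmt3l read on either platform, which allows up to 10.6 CPM in ONT Direct RNA and 2.28 CPM in ONT cDNA, and all Day4 reads came from replicate 2. That replicate also had the higher summed level of the pluripotency markers on both platforms (146 against 49.4 CPM and 91.5 against 7.59 CPM), whose part in the Dnmt3l reads was not tested.

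The log2 fold change of Dnmt3l was -5.07 ± 1.21 (adjusted p = 0.000664) in ONT Direct RNA and -5.46 ± 1.30 (adjusted p = 0.0006) in ONT cDNA. Reads summed over replicates gave a CPM 76.5 times as high in Undiff as at Day4 in ONT Direct RNA (95% exact interval 44.6 to 144, counting error only) and 119 times as high in ONT cDNA (62.3 to 260). Dnmt3l lost its call without either Undiff library, with -2.77 (adjusted p = 0.485) and -2.67 (adjusted p = 0.669) without replicates 1 and 2 of Direct RNA Undiff, and -3.21 (adjusted p = 0.304) and -2.93 (adjusted p = 0.458) without those of cDNA Undiff. The fits then compared 1 Undiff library with Day4 libraries of 0 and a few reads. Without the Day4 replicate 1 that held no read, the call stood on each platform. Over 10 alternatives the adjusted p ranged from 1.84e-40 to 0.669 in ONT Direct RNA and from 1.34e-31 to 0.458 in ONT cDNA. Aire, a neighbouring gene on the opposite strand whose exons overlap those of Dnmt3l, had 7, 26, 0 and 3 reads in the ONT Direct RNA libraries and 54, 176, 1 and 9 in the ONT cDNA libraries, in the order Undiff 1 and 2, Day4 1 and 2. The methods name strand-specific gene counting for Direct RNA alone, and they state that exons in the other libraries were counted without regard to strand. If the cDNA gene counts were made in that way too, reads of Aire and Dnmt3l over their shared exons cannot be told apart in ONT cDNA.

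Dnmt3a (chr12:3806007-3914443, plus strand) is the other catalytic de novo enzyme. It was measured at 161 and 150 CPM in the Undiff libraries of ONT Direct RNA and at 222 and 188 CPM at Day4. In ONT cDNA, 81.2 and 78.5 CPM in Undiff compared with 156 and 259 CPM at Day4. Day4 libraries were above Undiff libraries on both platforms. The difference passed no DEG threshold in ONT Direct RNA (0.29 ± 0.38, adjusted p = 0.841), and in ONT cDNA the log2 fold change of 1.01 ± 0.43 had an adjusted p of 0.116. Dnmt3a was called higher in ONT cDNA by edgeR (1.07, adjusted p = 0.0398) and when genes were limited to those with at least 10 reads in every library (1.14, adjusted p = 0.0241), with adjusted p between 0.0241 and 0.893 over 11 alternatives. The antisense gene Dnmt3aos, which overlaps its exons, had no read.

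The ratio of Dnmt3a to Dnmt3b reads summarized this contrast within each library. In ONT Direct RNA there were 0.718 and 0.418 Dnmt3a reads per Dnmt3b read in the Undiff replicates and 15.8 and 15.4 at Day4. In ONT cDNA the ratio was 3.67 and 1.28 in Undiff and 103 and 67.4 at Day4. The share of Dnmt3b in the reads of both enzymes was 58.2% and 70.5% in ONT Direct RNA Undiff, 5.97% and 6.08% at Day4, 21.4% and 43.8% in ONT cDNA Undiff, and 0.962% and 1.46% at Day4. Scaled by the length of the longest annotated transcript, 9.685 kb for Dnmt3a and 4.32 kb for Dnmt3b, the ratio was 0.32 and 0.187 in ONT Direct RNA Undiff and 7.03 and 6.89 at Day4, so Dnmt3b had the higher level per kb in Undiff and Dnmt3a at Day4. In ONT cDNA the ratio per kb was 1.64 and 0.572 in Undiff, on either side of 1, and 45.9 and 30.1 at Day4. The unscaled ratio of ONT cDNA Undiff was above 1 in both replicates, so which enzyme was higher in replicate 2 depends on the scaling.

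**Figure D3:**
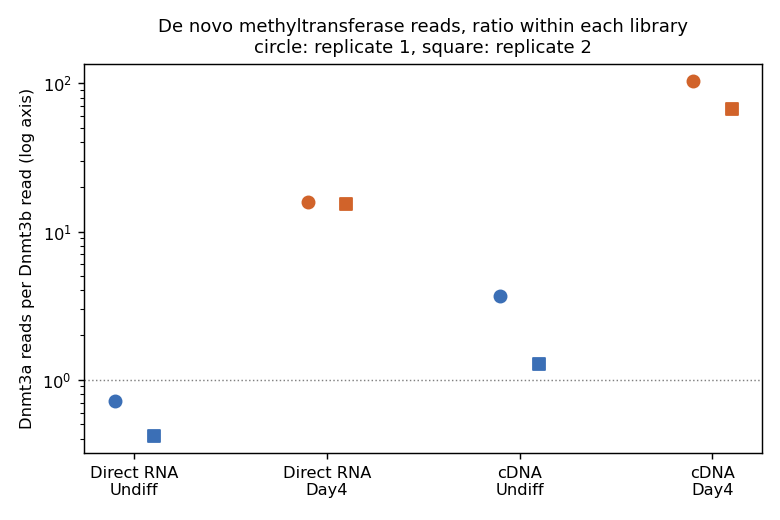
Number of Dnmt3a reads per Dnmt3b read in each library on a log axis, by platform and state, with a dotted line at equal numbers of reads. The Undiff libraries lay between 0.418 and 3.67 and the Day4 libraries between 15.4 and 103.

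Within the reads of Dnmt1, Dnmt3a, Dnmt3b and Dnmt3l together, the composition changed accordingly. Dnmt3l made up 53.6% and 59.2% of them in ONT Direct RNA Undiff and 54.5% and 69.5% in ONT cDNA Undiff. At Day4, Dnmt3a was the largest share in every library, with 55.3% and 50.9% in ONT Direct RNA and 90.7% and 87.1% in ONT cDNA. Dnmt1 made up 41.2% and 41.0% at Day4 in ONT Direct RNA and 8.37% and 10.2% in ONT cDNA. These shares count reads and are not scaled by length.

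Among the oxidizing enzymes, Tet1 was lower at Day4 on both platforms, Tet2 in ONT cDNA, and Tet3 was read rarely. Tet1 (chr10:62804570-62908996, minus strand), the main Tet enzyme of embryonic stem cells along with Tet2, was at 91.8 and 123 CPM in ONT Direct RNA Undiff and at 21.2 and 10.8 CPM at Day4. In ONT cDNA it was at 56.9 and 103 CPM in Undiff and at 13.7 and 18.3 CPM at Day4. The states were separate on both platforms. The log2 fold change of Tet1 was -2.83 ± 0.65 (adjusted p = 0.00032) in ONT Direct RNA and -2.56 ± 0.53 (adjusted p = 5.49e-05) in ONT cDNA, or 7.09-fold and 5.91-fold lower. Its call was lost without replicate 2 of Direct RNA Undiff (-2.35, adjusted p = 0.347), of Direct RNA Day4 (-2.25, adjusted p = 0.147) or of cDNA Undiff (-2.12, adjusted p = 0.108), and in ONT cDNA after thinning (-2.09, adjusted p = 0.211). Its adjusted p lay between 6.78e-09 and 0.347 over the ONT Direct RNA alternatives and between 1.59e-06 and 0.211 over those of ONT cDNA.

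Tet2 (chr3:133463679-133545139, minus strand) gave 4 and 20 reads in ONT Direct RNA Undiff and 4 and 4 at Day4, or 11.5 and 22.0 CPM against 14.1 and 5.42 CPM. These overlapping values gave a log2 fold change of -0.87 ± 1.05 (adjusted p = 0.798). In ONT cDNA, Tet2 was read far more often, at 305 and 166 CPM in Undiff and 108 and 128 CPM at Day4. The Undiff libraries were both above the Day4 libraries, and the log2 fold change of -1.32 ± 0.45 (adjusted p = 0.034), or 2.49-fold lower, made it a DEG. That call did not stand without replicate 1 of cDNA Undiff (-0.81, adjusted p = 0.576), replicate 1 of cDNA Day4 (-1.21, adjusted p = 0.384) or replicate 2 of cDNA Day4 (-1.27, adjusted p = 0.368), nor after thinning (-1.18, adjusted p = 0.399), and over 11 alternatives the adjusted p of Tet2 ranged from 0.00826 to 0.576.

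Tet3 (chr6:83362373-83459084, minus strand) had 0 and 1 read in ONT Direct RNA Undiff and 5 and 3 at Day4, and 1 and 3 reads against 8 and 32 in ONT cDNA. Each Day4 library had a higher Tet3 CPM than the Undiff libraries of its platform. Summed over replicates, Day4 had 9.84 times the Undiff level in ONT Direct RNA (95% exact interval 1.32 to 437) and 8.94 times in ONT cDNA (3.23 to 34.4), where the intervals cover counting error only. DESeq2 gave log2 fold changes of 2.32 ± 1.39 (adjusted p = 0.364) and 2.30 ± 1.12 (adjusted p = 0.204), so Tet3 was not a DEG, and in ONT Direct RNA its mean of 2.73 normalised reads was under the limit. edgeR called Tet3 higher in ONT cDNA (2.70, adjusted p = 0.00482), where the adjusted p over 10 alternatives ranged from 0.00482 to 0.968.

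Tdg (chr10:82629828-82650799, plus strand) had 0 reads in each of the 8 libraries, a count that allows up to 10.6 CPM in the shallowest library and 1.44 CPM in the deepest. Of all 24421 genes, 7154 shared this. A processed pseudogene, Tdg-ps (chr15:82516311-82519278), is 98.7% identical to the longest Tdg transcript over 2968 bases in the GENCODE annotation and is not among the genes of the count tables, and Glt8d2, on the opposite strand, overlaps exons of Tdg and had 3 reads in all. Of all reads, 18.5% to 28.0% per library were set aside at counting for low alignment quality. Whether Tdg reads were among them was not tested, so its 0 says only that no read was counted on it.

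Levels were compared between genes per kb of the longest transcript. Long reads can span whole transcripts, so this division can rank long genes too low, and the order by CPM alone differed. In ONT Direct RNA Day4, CPM put Dnmt3a (205 CPM) before Dnmt1 (159 CPM) and Dnmt3l at rank 8 in place of 4. In ONT cDNA Undiff, CPM put Tet2 (235 CPM) before Uhrf1 (188 CPM). The orders that follow are per kb. In ONT Direct RNA Undiff, the order from high to low was Dnmt3l (494 ± 128 CPM per kb, SD, n = 2), Dnmt3b (67.4 ± 22.0), Uhrf1 (58.9 ± 17.6), Dnmt1 (40.8 ± 3.21), Dnmt3a (16.0 ± 0.792), Tet1 (7.49 ± 1.55), Tet2 (1.83 ± 0.813) and Tet3 (0.0505 ± 0.0715). Dnmt3b and Uhrf1 overlapped in this order, and no other neighbours with reads did. At Day4 on that platform Dnmt1 (27.1 ± 1.68 CPM per kb) and Dnmt3a (21.2 ± 2.47) came first, followed by Uhrf1 (14.6 ± 7.23), whose range overlapped that of Dnmt3a, while Dnmt3l (4.84 ± 6.84), Dnmt3b (3.05 ± 0.312), Tet1 (1.11 ± 0.508), Tet2 (1.06 ± 0.669) and Tet3 (0.995 ± 0.88) filled the lower ranks. The ranges of Uhrf1 and Dnmt3l, of Dnmt3l and Dnmt3b and those of the 3 Tet genes overlapped as well.

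In ONT cDNA the order in Undiff was again led by Dnmt3l (148 ± 94.9 CPM per kb), followed by Uhrf1 (52.3 ± 5.85) and Tet2 (25.6 ± 10.7). Dnmt1 was near the end there, at 4.31 ± 1.52 CPM per kb, and Dnmt3b (9.66 ± 6.41), Dnmt3a (8.24 ± 0.193) and Tet1 (5.56 ± 2.26) lay between. Dnmt3b overlapped Dnmt3a there and Tet1 overlapped Dnmt1, and Tet3 (0.114 ± 0.0248) was lowest. At Day4, Dnmt3a (21.5 ± 7.53 CPM per kb) and Uhrf1 (17.7 ± 6.24) overlapped at the top, Tet2 (12.8 ± 1.53), whose range met that of Uhrf1, came next and Dnmt1 followed at 3.81 ± 1.92. Dnmt3l (1.19 ± 1.68), Tet1 (1.11 ± 0.228), Tet3 (0.985 ± 0.605) and Dnmt3b (0.621 ± 0.382) were lowest, and each overlapped the next. The rank of Dnmt3l fell and that of Dnmt3a rose from Undiff to Day4 on both platforms.

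**Figure D4:**
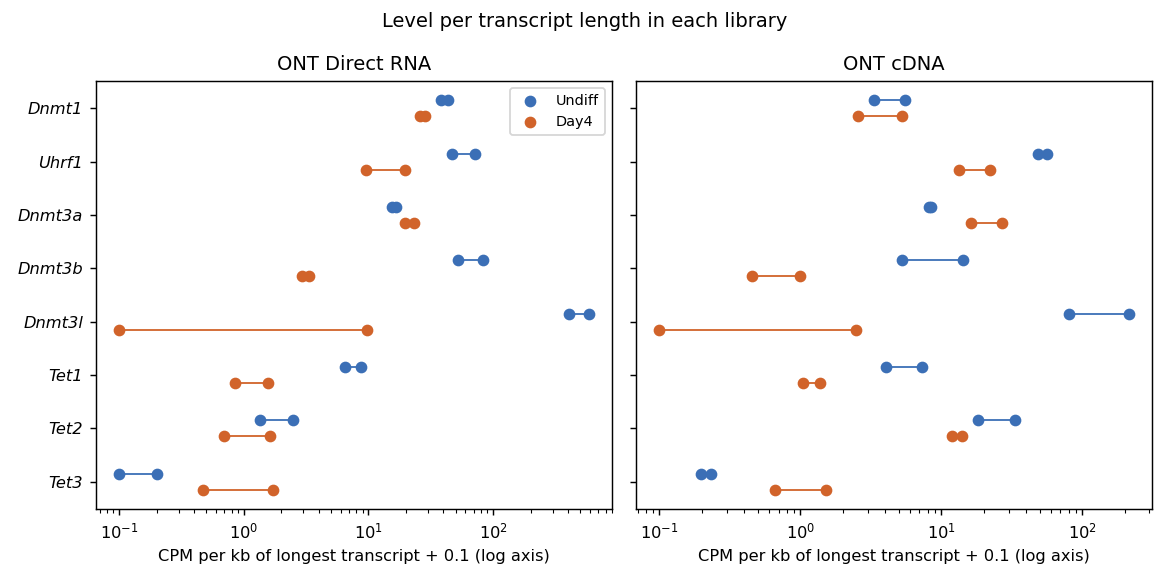
Level in CPM per kb of the longest transcript, plus 0.1, on a log axis for the 8 genes with reads, with 1 point per library and a line joining the 2 replicates of a state. Dnmt3l spans the widest distance between states on both platforms, and Dnmt3a and Tet3 are the genes whose Day4 points lie to the right of the Undiff points on both.

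The platforms gave different levels for 3 of the 9 genes when the state was held in the model. Dnmt1 was 4.74-fold lower in ONT cDNA than in ONT Direct RNA (log2 difference -2.25 ± 0.25, adjusted p = 2.96e-17), and Dnmt3b 3.50-fold lower (-1.81 ± 0.41, adjusted p = 4.82e-05). Tet2 was 21.1-fold higher in ONT cDNA (4.40 ± 0.41, adjusted p = 5.29e-25). By the DEG thresholds, 26.6% of genes with a mean of at least 5 were lower and 24.7% higher in ONT cDNA, so a kit difference was common among all genes and the 3 calls were no larger a share than that background. Uhrf1 differed by 0.80 ± 0.28 (adjusted p = 0.0129), under the fold threshold, and passed it without replicate 2 of Direct RNA Undiff (1.02, adjusted p = 0.00511, with a range of 0.00511 to 0.514 over 13 alternatives). Dnmt3l differed by -1.01 ± 0.81 (adjusted p = 0.4) and passed without replicate 1 of Direct RNA Day4 (-1.26, adjusted p = 0.0174), after thinning (-1.30, adjusted p = 0.0215), with the replicate block (-1.08, adjusted p = 0.00223) and by edgeR (-1.02, adjusted p = 0.00471, with a range of 0.00223 to 0.84 over 12 alternatives).

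**Figure D5:**
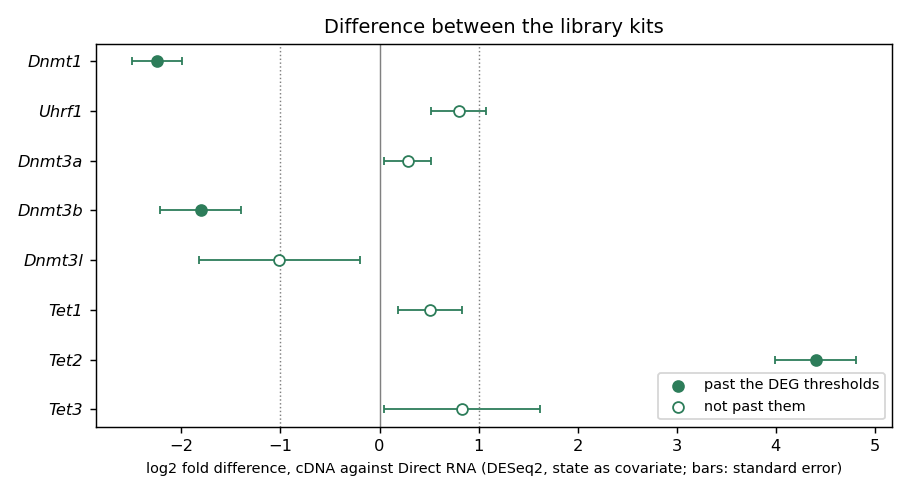
Log2 fold difference of ONT cDNA against ONT Direct RNA by DESeq2 with the state as covariate, with standard errors as bars and dotted lines at the fold threshold. Tet2 lies at 4.40 and Dnmt1 and Dnmt3b lie at -2.25 and -1.81, each with a filled symbol.

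Whether the change between states itself differed between platforms was tested by an interaction term over all 8 libraries. DESeq2 called 0 of the 9 genes, edgeR called 0, and 0 had an unadjusted p under 0.05, the lowest being 0.186 for Dnmt3a (0.72 ± 0.55). The background was 0.0116% of 17267 genes, and 0.932% had an unadjusted p under 0.05. The standard errors of the interaction ran from 0.55 for Dnmt3a to 2.38 for Tet3, so differences of that size between platforms would not have been detected. The Tet2 call in ONT cDNA alone is thus no shown difference between platforms, with an interaction of -0.16 ± 0.90 (adjusted p = 0.9999).

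Other genes of the pathway were taken from lists of its partners. Among 22 partners of maintenance methylation and linked histone methylation, 6 were lower and 2 higher at Day4 in ONT Direct RNA, and 6 were lower in ONT cDNA, where 21 reached the mean of 5 on each platform. Over all genes that reached it, 7.67% were lower and 9.54% higher in ONT Direct RNA and 9.24% and 8.69% in ONT cDNA, and these shares are the background for each list. The list's median log2 fold change was -0.45 and -0.62, where that of all genes tested was 0.025 and 0.0019. Dppa3, which protects methylation in the early embryo, was lower by -2.47 ± 0.71 in ONT Direct RNA (adjusted p = 0.00696) and by -3.81 ± 0.51 in ONT cDNA (adjusted p = 1.42e-11). Zfp57, a zinc finger protein that keeps methylation at imprinted regions, was lower by -2.75 ± 0.52 (adjusted p = 4.83e-06) and -1.46 ± 0.43 (adjusted p = 0.00881). Hells, a chromatin remodeler needed for methylation, and Usp7, a deubiquitinase that binds Dnmt1 and Uhrf1, were also lower on both platforms, with -1.83 and -1.47 for Hells and -1.89 and -2.18 for Usp7. On the demethylation side, 23 base excision and related partners gave 1 higher and 1 lower gene in ONT Direct RNA and 2 higher and 1 lower in ONT cDNA, out of 16 and 20 that reached the mean, which is near or below the background for lower genes. Idh2, an isocitrate dehydrogenase that makes the Tet cosubstrate 2-oxoglutarate, was higher on both (1.52 ± 0.38, adjusted p = 0.00144, and 1.69 ± 0.48, adjusted p = 0.00673).

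The uracil glycosylases Ung and Smug1 were each called on 1 platform, Ung lower in ONT Direct RNA (-1.67 ± 0.43, adjusted p = 0.00206, against -1.63 ± 0.60, adjusted p = 0.0558, in ONT cDNA) and Smug1 higher in ONT cDNA (2.59 ± 0.72, adjusted p = 0.00479, against 1.62 ± 0.66, adjusted p = 0.0993, in ONT Direct RNA). Apobec2, of the cytidine deaminase family, was lower in ONT cDNA (-3.29 ± 1.11, adjusted p = 0.0308, against -1.48 ± 1.28, adjusted p = 0.64). By the interaction, the changes of these 3 genes were not shown to differ between platforms (adjusted p = 0.9999 each by DESeq2). Of 14 readers of CpG, 11 reached the mean in ONT Direct RNA and 10 in ONT cDNA. Mbd1, which binds methylated CpG, was higher in ONT cDNA (2.04 ± 0.70, adjusted p = 0.0354), a share near the background, and had 2.40 ± 0.98 (adjusted p = 0.101) in ONT Direct RNA. DESeq2 called 0 in ONT Direct RNA, where 2 had an unadjusted p under 0.05 and edgeR called 2. Of 16 S-phase and proliferation genes, all of which reached the mean, 3 were lower on each platform, against the 7.67% and 9.24% of all genes, and only Ccne1, cyclin E1, on both (-2.60 ± 0.39, adjusted p = 2.56e-09, and -2.50 ± 0.51, adjusted p = 3.03e-05). The others called were Mcm5 (-1.17) and Cdc6 (-1.61) in ONT Direct RNA and Mcm2 (-1.23) and Rrm2 (-1.05) in ONT cDNA, of DNA replication and nucleotide synthesis, and the list's median was -0.68 and -0.65. Of 15 germline genes known as promoter methylation targets, 4 reached the mean in ONT Direct RNA and 8 in ONT cDNA, of which 3 and 2 were lower, with Dppa4 (-4.76 ± 0.65, adjusted p = 4.24e-11, and -4.80 ± 0.55, adjusted p = 1.42e-15) and Dppa2 (-4.57 ± 0.63, adjusted p = 7.71e-11, and -3.51 ± 1.25, adjusted p = 0.0469) on both. Both are also expressed in pluripotent cells. Of the 24 calls of the genes named from these lists, 21 were lost when 1 library or another was left out, and 3 held without each library in turn, namely Ccne1 and Dppa2 in ONT Direct RNA and Dppa3 in ONT cDNA.

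The genes whose levels followed Dnmt3b most closely over the 8 libraries, by Pearson correlation of log2 normalised counts among 3791 genes whose mean reached 50 reads, included Ctbp2 (r = 0.992), Ccne1 (0.992), Ppat (0.99) and Usp14 (0.984). Those closest to Tet1 were Slc29a1 (0.988), Trim6 (0.987), Gtse1 (0.987), Mettl16 (0.985) and D630045M09Rik (0.984). Among the genes of the list itself, Uhrf1 and Tet1 had the highest correlation (0.969), followed by Dnmt3b and Dnmt3l (0.924), and the lowest were Dnmt3l with Tet3 (-0.888), Dnmt3b with Tet3 (-0.858) and Dnmt1 with Tet2 (-0.852). The 8 points share 2 states, 2 kits and unequal depth, so these values describe likeness over groups.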

How the data were processed

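The authors sequenced poly(A) RNA on MinION flow cells, aligned the reads to mm10 with minimap2 and counted them per gene with HTSeq, Direct RNA by strand. The deposited files hold raw read counts per gene, 1 per library, with replicates not pooled. Reads not assigned to a gene (38.1% to 61.7% per library) were left out. CPM are counts scaled to 1000000 gene-assigned reads, with 95% Wilson intervals.

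State effects were fitted per platform with DESeq2 1.42.0 (R 4.3.3) with shrinkage and the thresholds of the study's methods, over all genes with a read. A platform effect with state as covariate and their interaction (not shrunken) used all 8 libraries. Alternatives were edgeR 4.0.16 with TMM factors, no shrinkage, filters, replicate blocks, thinning to 283461 reads (10 draws) and each library left out. Fits were tested on simulated data with 4-fold changes placed in genes above a minimum mean count. For the states, DESeq2 recovered 41% of these changes in ONT Direct RNA and 46% in ONT cDNA. Recovery was 84% for the platform and 18.5% for the interaction, so a gene that was not called may still have changed. Transcript lengths and gene coordinates came from GENCODE on GRCm38, the assembly of mm10, and promoters from RefSeq.

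The genes and lists were chosen with earlier results of these data known. All 9 genes are named. Of each list, up to 4 genes called in 1 direction on both platforms with the largest mean change are named, and, where fewer than 2 were, any called on 1. For Dnmt3b and Tet1, the 5 genes of highest Pearson correlation were taken, of which 1 is not reported here.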

Additional observations from a re-analysis of the deposited data

How the results depend on the processing

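Every called direction of the 9 genes held under the alternatives run. Calls changed with single libraries, with the filter, with edgeR and, between the states, with thinning in ONT cDNA. For the platform they also changed with thinning and with the replicate block. By edgeR, 7 genes were called in ONT cDNA, with Dnmt3a and Tet3 added as higher, and 4 for the platform, with Dnmt3l added. Of the 4 genes called in ONT Direct RNA, 1 was called when genes under 10 reads in any library were dropped, a filter that takes out Dnmt3b, Dnmt3l and Tet1 through their Day4 counts, and between 1 and 4 with 1 library left out. Of the 5 in ONT cDNA, between 1 and 4 were called with 1 library left out and 2 after thinning to the smallest library, the median number called per draw over 10 draws. Each gene's own thinned value and adjusted p are its medians over the draws, and Dnmt3l alone was called in most draws. Thinning left the 4 calls of ONT Direct RNA, and gave 4 for the platform, where Dnmt3l was added. The lone libraries were assumed to vary like the other state. With at least 10 reads in every ONT cDNA library, 4 genes were called there, Tet1, Tet2 and Uhrf1 lower and Dnmt3a higher, while the filter took out Dnmt3b and Dnmt3l. Of the 3 platform calls, 1 was left under the filter of 10 reads in all 8 libraries. Dnmt3a reads per Dnmt3b read in cDNA Day4 averaged 85.2 and fell to 58 after thinning. All genes called numbered 1660 in ONT Direct RNA and 1842 in ONT cDNA by DESeq2, 3257 and 3348 by edgeR, 723 and 989 under the filter of 10 reads, and 950 and 488.5 after thinning. The DESeq2 totals were below those the study reported for the same platforms.

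The replicate block left 4 genes called in ONT Direct RNA, 5 in ONT cDNA and 0 for the interaction, and 4 for the platform, where Dnmt3l was added. It reduced the calls over all genes to 843 and 1375. The study describes its RNA as used with both kits, but neither labels nor methods say that a number marks the same culture. Differences between replicates correlated across states at 0.214 in ONT Direct RNA and 0.5 in ONT cDNA over 1395 genes, and across platforms at 0.124 in Undiff and -0.416 in Day4, and with the Day4 numbers crossed, a pairing chosen after seeing the data, 3 genes were called for the platform and 0 for the interaction. With 13 and 10 Dnmt3b reads at Day4 in all, depth limits how far its fold change can be told.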
